A study of Mus musculus with 32 samples.

Results

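De novo fatty acid synthesis was examined through the mRNA of 8 genes that carry carbon from mitochondrial citrate to palmitate or act on the intermediates of that route: Slc25a1, Acly, Acss2, Acaca, Acacb, Mlycd, Fasn and Me1. All probes whose gene name in the scanner files equalled a member and which were also in the deposited value table were taken, with no choice by their values. This gave 23 probes for the 8 genes, of 37306 probes and 24523 gene names analysed. Each member probe was a single spot of 60 bases, all 23 passed the filter on dim spots, and each was well above background on all 32 arrays. Levels are log2 intensities, which were not compared between probes. Where no probe is named, values are those of the brightest probe of the gene, and a probe or gene rose or fell when limma's adjusted p, taken over all probes of the array, was under 0.05.

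Gene expression in brown adipose tissue was measured on 32 Agilent arrays with a single dye, 8 for each of 4 groups of male mice of the C57BL6/J background. The total ChREBP KO mice are Mlxipl null and lack both the α and the β isoform of the transcription factor ChREBP, and the ChREBPβ KO mice carry a CRISPR deletion of exon 1b of Mlxipl and lack only the β isoform. Both deletions are present in every tissue, so brown adipose tissue was not the only organ affected, and each KO group has WT littermates of its own line as its control. All mice, controls included, had a 24 hour fast and then 18 hours of refeeding with the diet used before and with drinking water that held 20% glucose. The age of the mice is not given in the sources used here.

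Slc25a1 moves citrate out of mitochondria, Acly splits it into acetyl-CoA and oxaloacetate, and Acss2 makes acetyl-CoA from acetate. Acaca and Acacb carboxylate acetyl-CoA to malonyl-CoA, Mlycd turns malonyl-CoA back, and Fasn uses malonyl-CoA and NADPH, part of it from Me1, to build palmitate. ChREBP is a glucose-responsive factor that binds E-box pairs called carbohydrate response elements near glycolytic and lipogenic genes, and brown adipose tissue has high lipogenesis on refeeding after a fast.

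The promoter sequences of 4 members are shown because these genes bracket the range of responses described below, from Slc25a1, called in both KO lines, to Mlycd, called in neither. Each is the 250 bases before the annotated start in RefSeq (build GRCm38.p6), written 5′ to 3′ on the strand of the gene, with matches of the searched motifs in capitals. Slc25a1 is on the minus strand at chr16:17928220-17928469, Acly on the minus strand at chr11:100528001-100528250, Fasn on the minus strand at chr11:120824548-120824797 and Mlycd on the plus strand at chr8:119394644-119394893.
Slc25a1: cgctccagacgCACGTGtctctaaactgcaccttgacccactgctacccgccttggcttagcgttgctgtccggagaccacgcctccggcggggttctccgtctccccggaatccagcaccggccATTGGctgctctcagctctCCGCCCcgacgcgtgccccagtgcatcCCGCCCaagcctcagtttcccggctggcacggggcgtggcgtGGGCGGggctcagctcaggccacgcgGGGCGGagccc
Acly: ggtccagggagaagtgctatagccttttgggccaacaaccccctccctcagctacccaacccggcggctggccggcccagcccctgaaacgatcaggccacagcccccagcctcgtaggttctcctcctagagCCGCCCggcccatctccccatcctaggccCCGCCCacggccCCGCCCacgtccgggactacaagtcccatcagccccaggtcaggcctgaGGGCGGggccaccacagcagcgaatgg
Fasn: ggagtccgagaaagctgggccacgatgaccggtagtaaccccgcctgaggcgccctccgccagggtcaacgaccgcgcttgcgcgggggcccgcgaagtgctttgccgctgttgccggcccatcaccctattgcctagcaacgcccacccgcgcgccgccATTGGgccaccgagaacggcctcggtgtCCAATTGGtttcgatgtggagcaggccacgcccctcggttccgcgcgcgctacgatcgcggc
Mlycd: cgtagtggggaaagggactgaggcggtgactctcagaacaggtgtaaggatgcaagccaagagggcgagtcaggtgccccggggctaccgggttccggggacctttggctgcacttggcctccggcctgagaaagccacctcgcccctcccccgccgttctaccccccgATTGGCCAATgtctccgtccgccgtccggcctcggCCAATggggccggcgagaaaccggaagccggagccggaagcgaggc

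RefSeq windows were found for all 8 genes, 9 in total because Me1 had a pair of starts. Each start is the annotated one, and whether a window lies inside a longer transcript of its gene was not tested. On either strand, the E-box CACGTG was in 6.02% of all 32851 promoter windows and in 1 of the 9 member windows, that of Slc25a1, at 239 to 234 bases before the start. The CCAAT box (CCAAT or ATTGG) was in 33.9% of all windows and 6 member windows, and 3 matches each were in those of Fasn and Mlycd, where some share or adjoin bases. The GC box (GGGCGG or CCGCCC) was in 32.7% of all windows and 4 member windows, with 4 matches each in those of Slc25a1, Acly and Acss2. The sterol response core TCACNCCAC (1.05% of all windows) and the ChoRE consensus (0.0274%) were in no member window. These matches describe the letters of the windows and nothing else.

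The array design assigns each probe to a transcript, and 3 of the probes are shown here. Acaca and Acly had the deepest falls of the members in total KO, and Slc25a1 the deepest in ChREBPβ KO. Each probe shown had the deepest fall of its gene in total KO and was not the brightest probe of that gene. Their coordinates are those of the array design (build mm9) and cannot be set against the promoter coordinates. Slc25a1 probe A_66_P108940 maps to chr16:17927280-17927339, Acly probe A_55_P2082914 to chr11:100365518-100365577 and Acaca probe A_55_P2121392 to chr11:84009021-84009080.
A_66_P108940: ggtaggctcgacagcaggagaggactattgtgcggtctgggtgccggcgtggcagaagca
A_55_P2082914: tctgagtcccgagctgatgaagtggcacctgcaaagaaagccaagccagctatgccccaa
A_55_P2121392: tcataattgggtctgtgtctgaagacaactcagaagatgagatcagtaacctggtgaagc

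The arrays were examined before the members. The share of spots well above background ran from 64.4% to 71.1% between arrays, with 0 saturated spots. The brightest Mlxipl probe fell in both KO lines, with log2 fold changes of −2.48 in total ChREBP KO and −1.50 in ChREBPβ KO (adjusted p = 2.02e-24 and 7.09e-17), while another of its 3 probes, A_55_P2045158, passed the test in neither. Mean log2 intensity of Ucp1, the uncoupling protein of brown adipocytes, was between 18.43 and 18.53 in the 4 groups. These means lay between the values of the brightest Acly probe and the Fasn probe outside total KO. Rank ties limit the spread of those probes, as described below, so a small difference in Ucp1 may not show. The mean log2 intensity of 10 skeletal muscle markers ranged from 12.86 to 16.22 in total-line WT and from 14.38 to 15.92 in total KO, but from 5.48 to 12.00 in ChREBPβ-line WT and from 5.50 to 11.39 in ChREBPβ KO. The 2 lines were therefore compared only through their own WT littermates, except where stated. With the mean of the muscle markers as a covariate, the probes called between the WT groups of the lines went from 14626 to 5189. Those called for the difference between the KO effects went from 8997 to 9184. Beyond that fit, the part of these cells in the results between lines was not tested. Within a line none of the 10 muscle markers passed limma's test between KO and WT, nor had an unadjusted p under 0.05.

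In total ChREBP KO, 7 of the 8 genes fell by their brightest probe, against 21.1% of all genes that fell, and the exception was Mlycd. Of the 23 probes, 20 fell, against 20.5% of all probes, and for the same number of member probes no KO array overlapped any WT array, against 15.6% of all probes. The median log2 fold change of the 8 genes was −2.12 and that of all genes was 0.01. In ChREBPβ KO, by contrast, 1 gene, Slc25a1, fell by its brightest probe (1.33% of all genes) and 3 probes fell (1.26% of all probes), both of Slc25a1 and 1 of Acaca. The log2 fold change was below 0 for 22 of the 23 probes (49.9% of all probes), and 16 of these had an unadjusted p under 0.05 (6.82% of all probes were lower with such a p), several probes of a gene being read on the same arrays. KO and WT arrays overlapped for every member probe, against 0.365% of all probes that did not overlap. The median of the 8 genes was −0.20 there and that of all genes −0.0030. In bulk tissue, fewer cells of a type and less RNA per cell cannot be told apart.

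**Figure D1:**
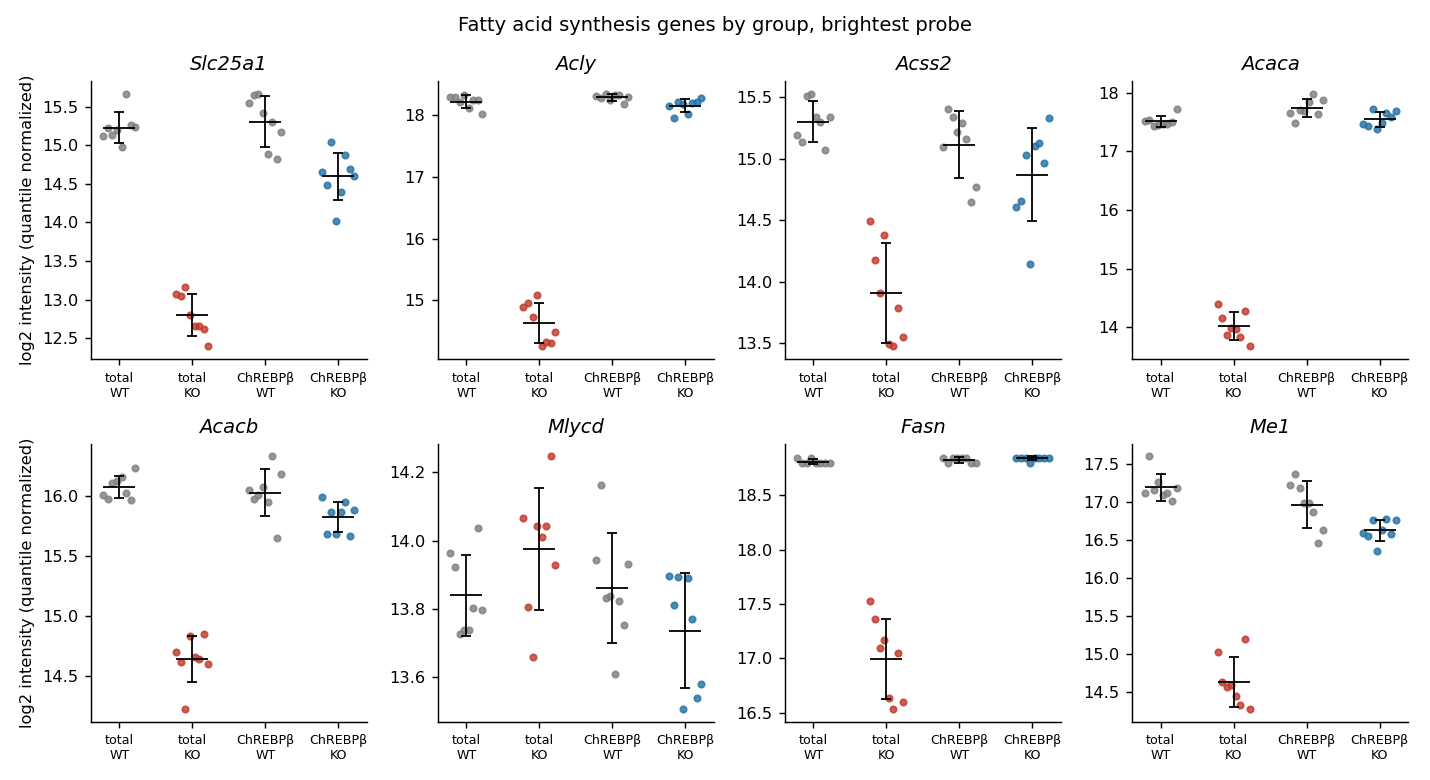
Log2 intensity (quantile normalized, y axis, with its own range in each panel) of the brightest probe of each gene in the 4 groups; each point is 1 array (n = 8 per group), and bars are mean ± SD. The total KO arrays lie below all WT arrays for 7 genes and overlap them for Mlycd.

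**Figure D2:**
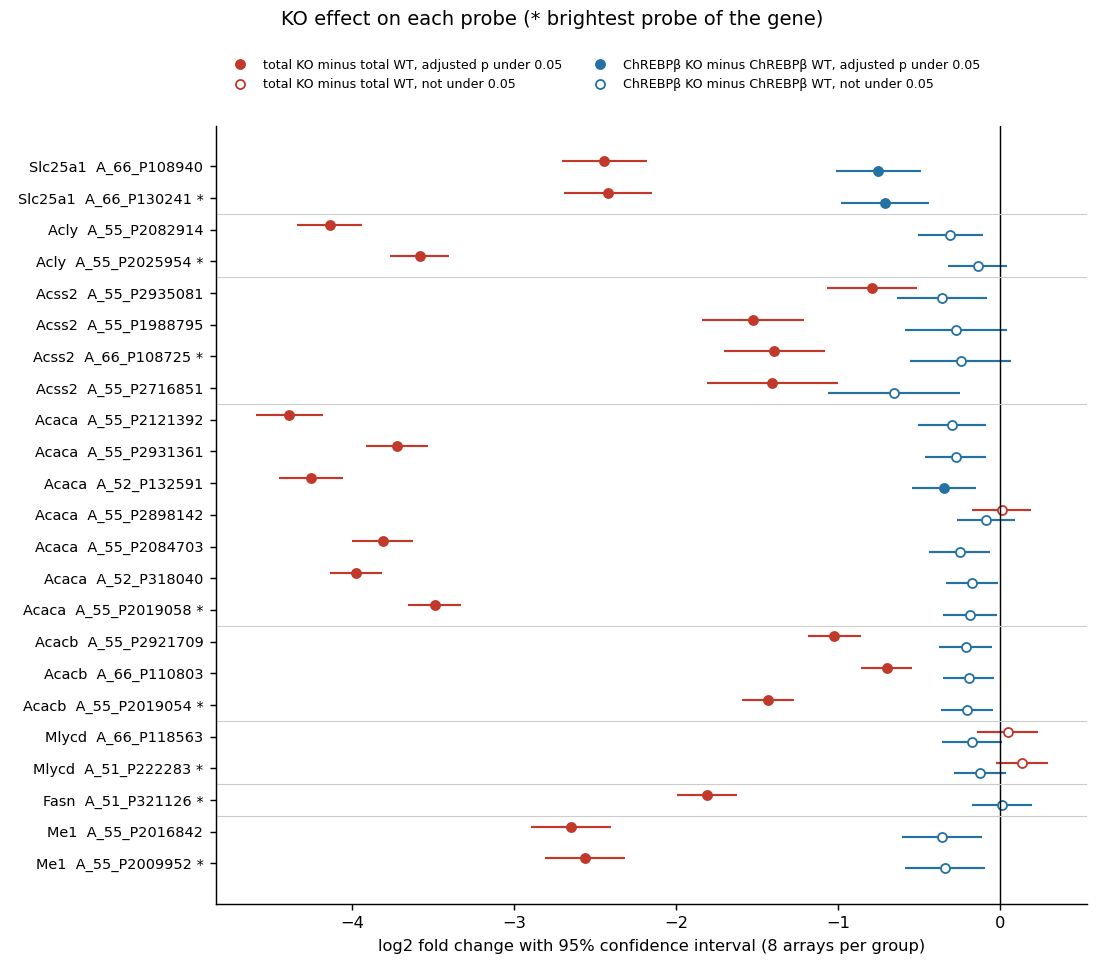
Log2 fold change with 95% confidence interval (x axis) of each of the 23 probes in both KO lines; filled symbols passed an adjusted p of 0.05 and asterisks mark the brightest probe of a gene. Of the probes, 20 fell in total KO and 3 fell in ChREBPβ KO.

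The citrate carrier Slc25a1 fell in both lines. Its brightest probe, A_66_P130241, had a log2 intensity between 14.98 and 15.66 (median 15.21) in total-line WT and between 12.40 and 13.17 (median 12.73) in total KO. In the ChREBPβ line it lay between 14.82 and 15.67 (median 15.35) in WT and between 14.02 and 15.04 (median 14.63) in KO. The total-line groups stood apart by more than 1 log2 unit, while in the ChREBPβ line 6 of the 8 KO arrays were below every WT array and the other 2 overlapped. The difference was −2.42 ± 0.13 (SE, n = 8 per group, 5.35-fold lower, adjusted p = 7.86e-16) in total KO and −0.71 ± 0.13 (61.1% of the WT level, adjusted p = 0.00204) in ChREBPβ KO. The other probe, A_66_P108940, lay between 12.71 and 13.58 in total-line WT and between 10.24 and 10.88 in total KO, and between 12.49 and 13.32 in ChREBPβ-line WT and between 11.85 and 12.70 in ChREBPβ KO. It gave −2.44 ± 0.13 and −0.75 ± 0.13 (59.4% of WT, adjusted p = 0.00077). The probes map to separate places, positions 488 and 1261 of the transcript, and both showed the difference in ChREBPβ KO.

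Within the ChREBPβ line the size of the Slc25a1 difference varied with the wash batch that the labels give each array. It was −1.31 in batch 1 (2 KO and 1 WT arrays), −0.79 in batch 2 (2 and 3), −0.25 in batch 3 (3 and 1) and −0.24 in batch 4 (1 and 3), all below 0. The WT arrays of batches 1 and 2 lay between 15.42 and 15.67 and those of batches 3 and 4 between 14.82 and 15.29. With wash batch as a block the difference was −0.65 (adjusted p = 0.00767), and with slide as a fixed block −0.68 (adjusted p = 0.105), the only 1 of 47 settings in which it did not pass. In total KO the 4 batches gave differences between −2.66 and −2.16.

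**Figure D3:**
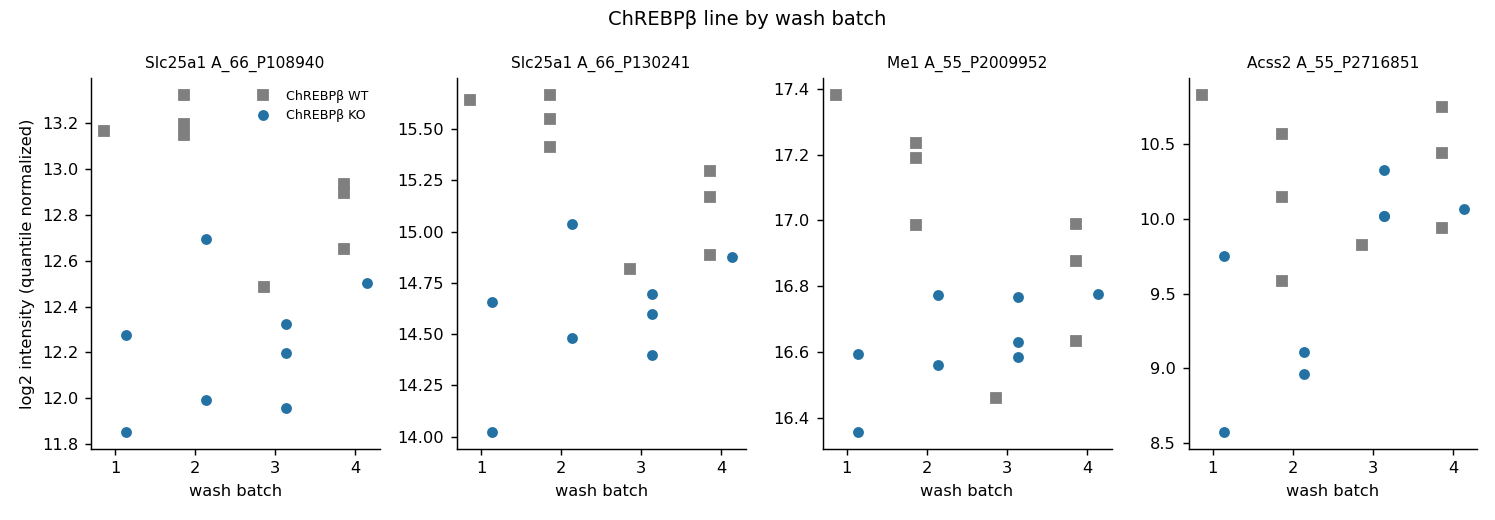
Log2 intensity (quantile normalized, y axis) in the ChREBPβ line by wash batch (x axis) for both Slc25a1 probes, Me1 and an Acss2 probe; squares are WT arrays, circles KO arrays, and some symbols coincide. The Slc25a1 KO arrays lie below the WT mean in each batch, by 1.31 in batch 1 and by 0.24 in batch 4 for A_66_P130241.

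Acly, ATP citrate lyase, had among the strongest falls in total KO and no called change in ChREBPβ KO. Its brightest probe, A_55_P2025954, lay between 18.02 and 18.32 (median 18.25) in total-line WT and between 14.26 and 15.09 (median 14.61) in total KO. It lay between 18.17 and 18.35 (median 18.30) in ChREBPβ-line WT and between 17.96 and 18.27 (median 18.19) in ChREBPβ KO. Total KO arrays were thus low throughout, and the ChREBPβ groups overlapped with 3 of 8 KO arrays below all WT arrays. The difference was −3.58 ± 0.089 (12.0-fold lower, adjusted p = 3.33e-25) in total KO and −0.14 ± 0.089 (95% interval −0.32 to 0.04, adjusted p = 0.557) in ChREBPβ KO. The fit takes 1 spread from all 4 groups, so this interval also reflects total KO. The SD was 0.33 there, against 0.056 and 0.11 in ChREBPβ-line WT and KO. In ChREBPβ KO, Acly passed in none of the 47 settings, including the fit on only the groups of the line. The design places the dimmer probe A_55_P2082914 at position 1597 of 1 transcript and the brightest at position 4359 of another. Medians of the dimmer probe were 11.58 in WT and 7.51 in KO of the total line. In the ChREBPβ line they were 12.01 in WT and 11.75 in KO. This dimmer probe gave −4.14 ± 0.098 (17.6-fold lower) in total KO and −0.31 ± 0.098 (adjusted p = 0.0916) in ChREBPβ KO. Outside total KO the bright probe stood between rank 20 and rank 35 on each array, and its 32 values held 22 distinct ones, so rank ties touched Acly as well.

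Acss2, which charges acetate with coenzyme A, fell at all 4 of its probes in total KO. The brightest, A_66_P108725, lay between 15.07 and 15.53 (median 15.32) in total-line WT and between 13.48 and 14.49 (median 13.85) in total KO, a difference of −1.39 ± 0.15 (2.63-fold lower, adjusted p = 5.21e-09). In the ChREBPβ line it lay between 14.65 and 15.40 (median 15.19) in WT and between 14.14 and 15.33 (median 15.00) in KO, a difference of −0.24 ± 0.15 (adjusted p = 0.534). The 4 probes gave differences between −1.52 and −0.79 in total KO, the smallest at A_55_P2935081, whose arrays lay between 7.92 and 8.28 in WT and between 7.11 and 7.61 in KO. The design places A_55_P2935081 and A_55_P2716851 at chr2:155349318-155349377 and chr2:155350949-155351008 and the brighter pair at chr2:155387492-155387551 and chr2:155388385-155388444 (mm9). It assigns the dimmer pair to another transcript than the brighter pair. In ChREBPβ KO the farthest from 0 was A_55_P2716851 with −0.66 ± 0.20 (adjusted p = 0.0733), whose KO arrays lay between 8.57 and 9.75 in wash batches 1 and 2 and between 10.02 and 10.33 in batches 3 and 4. For the brightest probe the within-batch differences in that line ran from −1.03 in batch 1 to 0.48 in batch 3, so its direction was not the same in all batches. Batches 1 and 3 each held 1 WT array, which were the highest and the lowest of that group for this probe. In batch 4, with 1 KO array, the difference was 0.06.

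Acaca, acetyl-CoA carboxylase 1, supplies malonyl-CoA for synthesis in the cytosol and was read by 7 probes. The brightest, A_55_P2019058, lay between 17.43 and 17.72 (median 17.49) in total-line WT and between 13.67 and 14.40 (median 13.98) in total KO. It lay between 17.49 and 17.98 (median 17.70) in ChREBPβ-line WT and between 17.38 and 17.71 (median 17.53) in ChREBPβ KO. The difference in total KO was −3.49 ± 0.081 (11.2-fold lower, adjusted p = 5.44e-26), with the groups far apart. The difference in ChREBPβ KO was −0.19 ± 0.081 (95% interval −0.35 to −0.02, adjusted p = 0.274), with the groups overlapping.

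Of the other Acaca probes, 5 fell in total KO by 3.72 to 4.39 on the log2 scale, the last of these at A_55_P2121392 (21.0-fold lower). In ranges, A_55_P2121392 went from between 11.52 and 12.12 in total-line WT to between 7.15 and 7.75 in total KO, and A_52_P318040 from between 13.99 and 14.42 to between 9.99 and 10.55. A_55_P2084703 went from between 9.53 and 10.23 to between 5.77 and 6.39, so a bright, a middling and a dim probe gave falls of like size. The remaining probe, A_55_P2898142, did not pass the test there (0.01 ± 0.089, adjusted p = 0.941). It was dim, between 4.74 and 5.68 on all arrays of the 4 groups, and the design places it at chr11:83944888-83944947 (mm9), upstream of the 6 other Acaca probes. The design assigns it to a transcript that is given for none of those 6 probes. In the ChREBPβ line, A_52_P132591 lay between 11.13 and 11.63 in WT and between 10.61 and 11.29 in KO. It fell by 0.35 (SE 0.096, 78.6% of WT, adjusted p = 0.0445), with all 8 KO arrays below the WT mean. A_55_P2931361, which shares a run of 36 bases with it, gave −0.28 ± 0.094 (adjusted p = 0.122). The call of A_52_P132591 was lost with wash batch as a block (adjusted p = 0.0888), with slide as a block (0.711) and with Agilent's processed signal (0.0784).

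Acacb, acetyl-CoA carboxylase 2, makes the malonyl-CoA that restrains fatty acid entry into mitochondria. Its brightest probe, A_55_P2019054, lay between 15.97 and 16.23 (median 16.07) in total-line WT and between 14.23 and 14.85 (median 14.65) in total KO. The difference was −1.44 ± 0.079 (2.70-fold lower, adjusted p = 6.03e-16), and the other 2 probes, A_55_P2921709 (median 8.29 in WT and 7.24 in KO) and A_66_P110803 (8.94 and 8.27), fell by 1.02 and 0.70. Total KO and WT arrays did not overlap for any of the 3. In the ChREBPβ line this probe lay between 15.65 and 16.33 (median 16.03) in WT and between 15.67 and 16.00 (median 15.87) in KO. All 3 probes had similar small differences there, from −0.21 to −0.19, none with an adjusted p under 0.05 (0.196 for the brightest).

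Mlycd, malonyl-CoA decarboxylase, works against the carboxylases and was the only member not called in total KO. Its brightest probe, A_51_P222283, lay between 13.73 and 14.04 (median 13.80) in total-line WT and between 13.66 and 14.25 (median 14.03) in total KO. It lay between 13.61 and 14.16 (median 13.83) in ChREBPβ-line WT and between 13.51 and 13.90 (median 13.79) in ChREBPβ KO. Groups overlapped in both lines. The differences were 0.13 ± 0.079 (95% interval −0.03 to 0.30, adjusted p = 0.172) and −0.13 ± 0.079 (95% interval −0.29 to 0.04, adjusted p = 0.538). The other probe, A_66_P118563, had medians of 8.49 and 8.60 in WT and KO of the total line and of 8.28 and 8.10 in the ChREBPβ line, and gave 0.05 ± 0.092 and −0.17 ± 0.092.

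Fasn, fatty acid synthase, was read by 1 probe that was among the brightest spots of the array. Outside total KO it was always the spot of rank 2 or 3, so that after quantile normalization it could take only 2 values, 18.79 and 18.85. Of the total-line WT arrays 6 of 8 had the lower of these values, and 5 of 8 ChREBPβ-line WT arrays and 7 of 8 ChREBPβ KO arrays had the higher. In total KO the rank was between 95 and 268 and the value between 16.53 and 17.53 (median 17.07), clear of all WT arrays. The difference was −1.81 ± 0.091 (3.51-fold lower, adjusted p = 5.97e-17) in total KO and 0.01 ± 0.091 (95% interval −0.17 to 0.20, adjusted p = 0.982) in ChREBPβ KO. As for Acly, the latter interval also reflects the spread of total KO. The SD was 0.37 there, against 0.026 and 0.018 in ChREBPβ-line WT and KO.

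Since tied ranks leave no spread for a small difference to show in, the scanner values of Fasn were also compared. Median pixel intensity was between 442034 and 518971 in total-line WT, between 446380 and 547935 in ChREBPβ-line WT and between 414463 and 537042 in ChREBPβ KO, but between 70918 and 181620 in total KO. With scaling to the 75th percentile of each array, which keeps the intensities of bright spots, log2 values were 9.73 ± 0.16 (SD, n = 8) in ChREBPβ-line WT and 9.72 ± 0.13 in ChREBPβ KO. The ChREBPβ KO difference was then −0.01 (limma, adjusted p = 0.987), also close to 0. Both values rest on 1 very bright probe, and whether its signal still follows small RNA differences at that brightness was not tested. In total KO, the scaled value was 7.74 ± 0.31, against 9.66 ± 0.12 in its WT group.

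**Figure D4:**
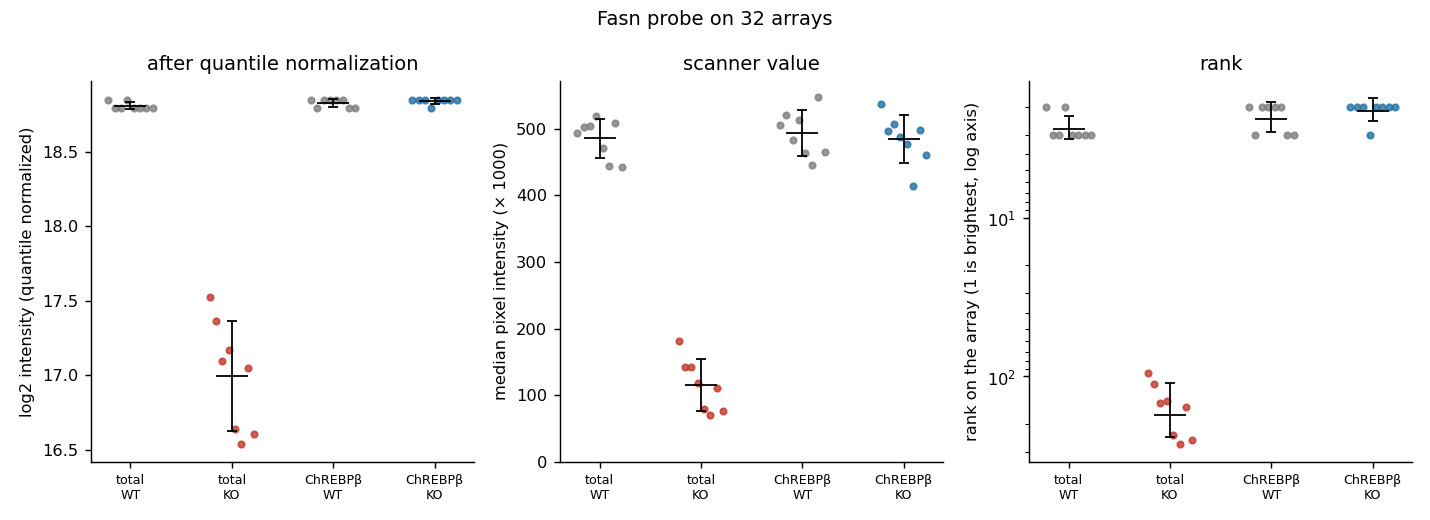
The Fasn probe on 32 arrays as normalized log2 intensity, as scanner intensity (median pixel value), and as rank (log axis, 1 is the brightest spot); points are arrays and bars mean ± SD. Outside total KO the rank is 2 or 3, and only 18.79 and 18.85 occur as normalized values.

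Me1, cytosolic malic enzyme, yields NADPH while it converts malate to pyruvate. Its brightest probe, A_55_P2009952, lay between 17.02 and 17.61 (median 17.14) in total-line WT and between 14.28 and 15.20 (median 14.58) in total KO, a difference of −2.56 ± 0.12 (5.91-fold lower, adjusted p = 1.32e-17). In the ChREBPβ line it lay between 16.46 and 17.38 (median 16.99) in WT and between 16.36 and 16.78 (median 16.61) in KO, a difference of −0.34 ± 0.12 (79.1% of WT, adjusted p = 0.148). All 8 ChREBPβ KO arrays were below the WT mean, but 1 was below every WT array. The other probe, A_55_P2016842, had medians of 16.23 and 13.51 in WT and KO of the total line and of 15.90 and 15.62 in the ChREBPβ line, and gave −2.65 and −0.36. Within batches the ChREBPβ KO difference of the brightest probe ran from −0.90 in batch 1 to 0.20 in batch 3. Each of these batches held 1 WT array, replicate 2 in batch 1 and replicate 7 in batch 3. These were the highest and the lowest of that group for this probe. Without ChREBPβ-line WT replicate 7, Me1 (−0.41, adjusted p = 0.0442) and Acacb (−0.26, adjusted p = 0.0459) passed limma's test. That array was the lowest of its group for both genes, so leaving it out enlarges their falls. Over all 37306 probes, the number called in ChREBPβ KO went from 953 to 1293 without it.

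The falls in total KO were present in each of the 4 wash batches for all 7 genes, and the smallest within-batch difference among them was −1.18, for Acss2. Arrays of 1 group did not place all genes in the same order. In ChREBPβ KO, replicate 4 was the lowest array for 6 of the 8 genes, and in ChREBPβ-line WT replicate 7 was the lowest for 5 and tied for the lowest with 2 other arrays for Fasn. In total KO no array was the lowest for more than 3 genes.

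The difference between the 2 KO effects was tested as a contrast of its own. It passed for 7 of 8 genes by their brightest probe (25.2% of all genes passed in either direction) and for 18 of 23 probes (24.1% of all probes), each with the deeper fall in total KO. Among the genes called, the difference ran from 1.15 ± 0.22 log2 units for Acss2 to 3.45 ± 0.13 for Acly. For Slc25a1 it was 1.71 ± 0.19 (adjusted p = 2.53e-08), so its fall in ChREBPβ KO was smaller than that in total KO. The probes that did not pass were both of Mlycd, the dim Acaca probe and a pair of Acss2 probes, A_55_P2935081 (0.43 ± 0.19, adjusted p = 0.106) and A_55_P2716851 (0.75 ± 0.28, adjusted p = 0.0511). For Mlycd the brightest probe gave −0.26 ± 0.11 (adjusted p = 0.0887).

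The WT littermates of the 2 lines were also compared, since they share a treatment but not a line. By the brightest probe 1 of 8 genes passed (38.9% of all genes) and of the probes 8 of 23 (39.2% of all probes). Acaca was higher in ChREBPβ-line WT by 0.22 ± 0.081 (adjusted p = 0.0303) at its brightest probe and by 0.37 to 0.48 at 4 others, while A_52_P318040 gave 0.14 (adjusted p = 0.153) and A_55_P2084703 gave −0.04 (adjusted p = 0.758). The Acly probe A_55_P2082914 was higher by 0.44 ± 0.098, and Me1 probe A_55_P2016842 and Mlycd probe A_66_P118563 were lower by a log2 difference of −0.32 and −0.31. The Acaca call was lost in 7 of the 47 settings, namely with the muscle list mean as a covariate (0.32, adjusted p = 0.106), with the deposited table (0.17, adjusted p = 0.0730), with slide as a block (0.16, adjusted p = 0.0727), where Me1 passed instead (−0.31, adjusted p = 0.0451), and when any of ChREBPβ-line WT replicates 5, 6 or 8 or total-line WT replicate 3 was left out (adjusted p between 0.0524 and 0.0726).

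The profiles of the members over the 32 arrays were compared after each was centred on its own mean. Acly and Acaca were the closest pair, with a root-mean-square difference of 0.21 log2 units, followed by Me1 and Slc25a1 with 0.28, while Mlycd and Acly were the farthest apart with 1.64. Of 16885 genes with a symbol, the nearest to Acly were Dixdc1 (0.26), Hvcn1 (0.33) and Sbk1 (0.37), and the nearest to Acaca were Hvcn1 (0.32), Dixdc1 (0.32) and Pth1r (0.34). Gbe1 (0.19), Tkt (0.20) and Gpi1 (0.20) were nearest to Acacb, and Phlda3 (0.19), Hk2 (0.20) and Aacs (0.21) to Fasn. Me1 was closest to Sorl1 (0.16), Sema4a (0.21) and Adap1 (0.23), and Acss2 to Acss2os (0.20), Dhcr7 (0.21) and Scd2 (0.21). Slc25a1 was closest to Slc38a10 (0.21), Sema4a (0.21) and Prkab1 (0.25). Of these neighbours, Slc38a10 (−0.89), Pth1r (−0.68), Prkab1 (−0.65), Dixdc1 (−0.53), Sema4a (−0.53), Adap1 (−0.37), Gpi1 (−0.30) and Tkt (−0.21) also fell in ChREBPβ KO, where 1.33% of all genes fell. Most of them were neighbours of members that did not pass there. The log2 fold changes of the neighbours in total KO lay between −4.06 and −1.11. The arrays of both KO groups were among the 32 used to choose the neighbours, so their falls in either line are not independent of that choice.

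Genes that feed or follow the pathway were described from lists, with the brightest probe of each gene. In total KO, 21.1% of all genes fell and 22.9% rose, and in ChREBPβ KO 1.33% fell and 1.37% rose, which is the background for the counts that follow. Of 10 enzymes that act on palmitate and its products, 8 fell and 1 rose in total KO (median −1.40). The farthest from 0 were Acsl5 (−3.41), an acyl-CoA synthetase, and the elongases Elovl3 (−3.16) and Elovl6 (−2.47). In ChREBPβ KO, Acsl5 (−1.27, adjusted p = 0.000408) and Elovl5 (−0.48, adjusted p = 0.0309) fell and 8 did not pass.

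Of 11 genes for acetyl-CoA and citrate supply in mitochondria and cytosol, 6 fell and 3 rose in total KO (median −0.52). Pdha1 (−0.99) and Pdhb (−0.80) of pyruvate dehydrogenase and the pyruvate carrier subunit Mpc1 (−0.81) were the farthest from 0, and Mpc2 (−0.24, adjusted p = 0.0445) was the only 1 that passed in ChREBPβ KO. Of 6 other genes listed around NADPH supply, 2 fell, Pgd (−1.68) and G6pdx (−0.36) of the pentose phosphate pathway. In the same list 1 rose, Pgls (0.55), whose step in that pathway does not itself yield NADPH. In ChREBPβ KO none passed by limma's adjusted p and 1 had an unadjusted p under 0.05. The median of this list was −0.04 in total KO and 0.08 in ChREBPβ KO.

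Of 14 regulators of lipogenic transcription and of acetyl-CoA carboxylase polymers, 9 fell and 1 rose in total KO, and 2 fell in ChREBPβ KO. Mlxipl, the deleted gene, is 1 of each count. Thrsp, a lipogenic protein of adipose tissue and liver, fell by 2.16 in total KO and by 0.30 (adjusted p = 0.0203) in ChREBPβ KO. Mid1ip1, which promotes polymerization of acetyl-CoA carboxylase, fell by 2.03 in total KO and differed by 0.17 (adjusted p = 0.547) in ChREBPβ KO.

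Of 7 genes of AMP-activated kinase, which inactivates both carboxylases by phosphorylation, and its activator Stk11, 4 fell and 2 rose in total KO. The β1 subunit Prkab1 fell by 2.40 there and by 0.65 (adjusted p = 0.0094) in ChREBPβ KO, and the α2 subunit Prkaa2 (−0.73) and the γ2 subunit Prkag2 (0.58) followed in total KO. Of 6 genes for biotin, the cofactor of the carboxylases, and for other biotin enzymes, 1 fell and 4 rose in total KO. The gene that fell was Hlcs, the ligase that attaches biotin to carboxylases, with −0.99, and it also fell in ChREBPβ KO (−0.46, adjusted p = 0.00452), while Mccc2 (0.78) and Pcca (0.31), subunits of mitochondrial carboxylases, rose in total KO.

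Mitochondrial fatty acid synthesis, a separate pathway that makes the precursor of lipoic acid, did not follow the cytosolic one. All 7 of its 8 genes that were measured had a log2 fold change above 0 in total KO and 4 rose, with Cbr4 (0.58), Mecr (0.45) and Ndufab1 (0.23) farthest from 0. In ChREBPβ KO, Mcat fell (−0.19, adjusted p = 0.0273) and Mecr rose (0.23, adjusted p = 0.0135). The carnitine acyltransferases include the Cpt1 forms, which are inhibited by malonyl-CoA. Of 5 such genes, 3 rose and 1 fell in total KO, Cpt1b (0.45), Cpt1a (0.40) and Cpt2 (0.34) being farthest from 0. None passed by limma's adjusted p in ChREBPβ KO, where 1 had an unadjusted p under 0.05. Of 6 measured genes of 8 for other acyl-CoA synthetases and anion carriers, 4 fell and 1 rose in total KO, led by Aacs (−1.97), which activates acetoacetate for lipid synthesis, and the monocarboxylate carrier Slc16a1 (−1.21). None of these passed by limma's adjusted p in ChREBPβ KO, where 2 had an unadjusted p under 0.05.

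**Figure D5:**
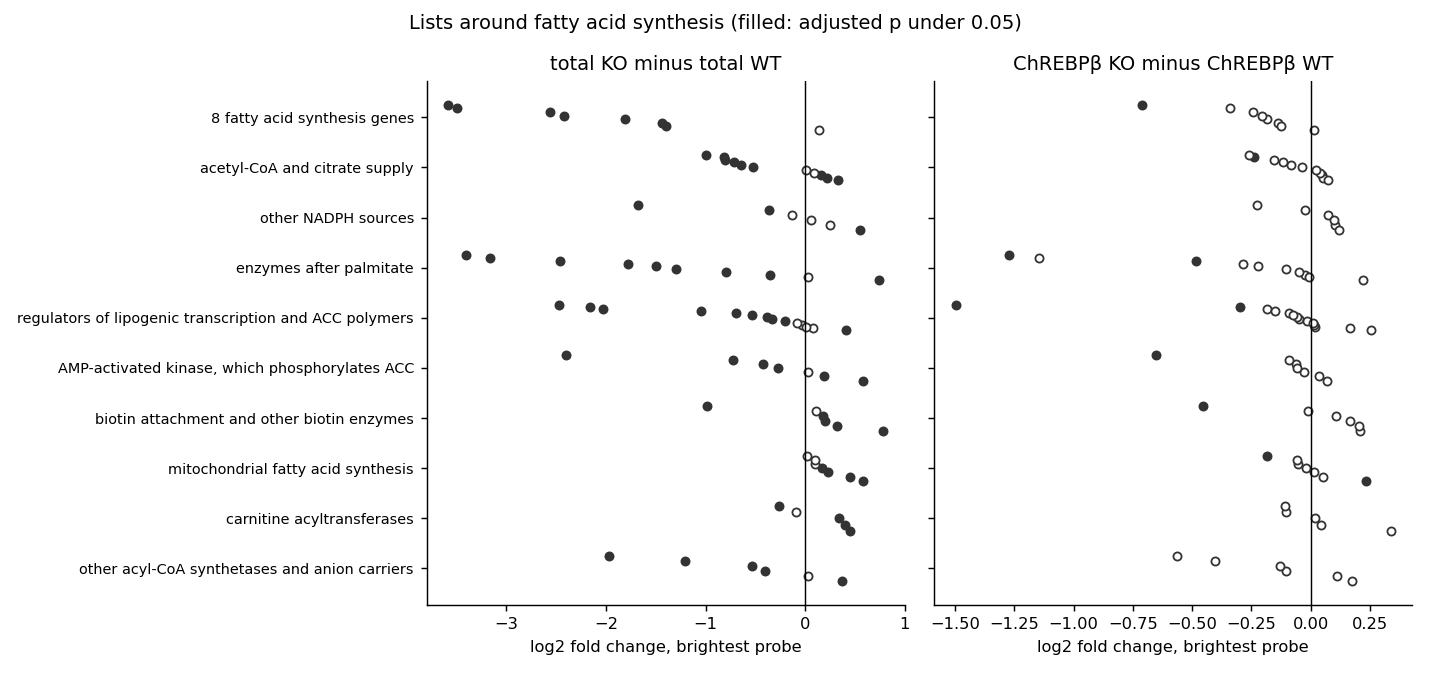
Log2 fold change (x axis, a wider range in total KO than in ChREBPβ KO) of the brightest probe of each measured gene in the 8-gene set and in 9 lists around it; filled points passed an adjusted p of 0.05. In total KO 7 of the 8 genes and 8 of 10 enzymes after palmitate lie to the left of 0 as filled points.

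Of the markers of cell types in or near the tissue, 1 passed in ChREBPβ KO, the lipid droplet protein Plin1 (0.23, adjusted p = 0.0173). There, 4 of 8 brown adipocyte markers had an unadjusted p under 0.05 by limma without passing. They were Dio2 (1.09), Cox7a1 (0.12), Elovl3 (−1.15) and Prdm16 (−0.33), so their directions differed. In total KO, 4 of 6 general adipocyte markers rose, among them Adipoq (0.65), and of 8 brown adipocyte markers 3 rose and 2 fell, 1 of the latter being the elongase Elovl3 named above. Of the macrophage and lymphocyte markers, 3 macrophage genes fell, Lyz2 (−0.76), Cd68 (−0.59) and Csf1r (−0.53), and the lymphocyte genes Cd3e (−0.06) and Ms4a1 (0.23) did not pass (adjusted p = 0.644 and 0.246). Of 3 measured white adipocyte markers Lep rose (0.30), of 3 endothelial markers Kdr fell (−0.27), and of 3 blood markers none passed, 2 of them having an unadjusted p under 0.05. Of 7 liver markers 1 fell, Apoc3 (−1.58), and the mean log2 intensity of that list ranged from 5.42 to 10.86 in total-line WT, 4.96 to 8.48 in total KO, 5.37 to 12.73 in ChREBPβ-line WT and 5.29 to 12.41 in ChREBPβ KO. Apart from the covariate fits that follow, the part of these cells in the falls of the members was not tested. With the muscle or the liver list mean as a covariate, 7 genes fell in total KO and 1 in ChREBPβ KO, and no such fit was made for the adipocyte or macrophage markers.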

How the data were processed

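RNA of brown adipose tissue from 32 mice was labelled with Cy3 and hybridised to 1-colour Agilent SurePrint mouse arrays. The deposited scanner files give each spot's median pixel intensity as written by Feature Extraction 10.10.1.1 (submitters' processing notes), before any normalization between arrays. A deposited table of log2 values holds the same arrays after the authors' filter, quantile normalization and median over replicated probes.

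The scanner values were processed again by the study's procedure. Of 59305 spots that were no controls, 39985 passed the authors' criteria (found, positive, above background by the scanner's flag) on 26 of 32 arrays or on 6 of the 8 in any group. Their intensities were log2 transformed, quantile normalized and reduced to 37306 probes. The methods do not give the order of log2 and normalization. This order was taken because it lay closer to the deposited table (mean absolute difference 0.00298). Arrays have no read depth, and their number limits the precision.

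Each probe was fitted with limma 3.58.1 in R 4.3.3 (lmFit, eBayes, 4 group means), with two-sided p-values adjusted by Benjamini-Hochberg over all probes of a contrast and called under 0.05. The fit takes 1 spread per probe from all 4 groups, so the SE and interval of either line also rest on the arrays of the other. No source names pooling of animals or repeat arrays, and p-values measure the spread between these arrays. A gene was represented by its brightest probe. Named were every member probe, per list up to 3 called genes with the largest absolute change in total KO and all those called in ChREBPβ KO, and per called member the 3 genes with the nearest centred profile. The script was tested on simulated data. The alternatives covered normalization, background, filters, batch and slide, covariates, array weights and single arrays. The members and lists were chosen with earlier results of these data known. Hsd17b8 and Acat2 were not found under these names and Slc13a5 did not pass the filter. The result of 1 cell type marker is not reported here.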

Additional observations from a re-analysis of the deposited data

Results flagged for a closer look

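Among the 92 sets of 8 values given by 23 probes in 4 groups, 10 had a highest or lowest array whose gap to the nearest other array was a larger share of the range than Dixon's limit for 8 samples, where chance gives about 1 in 20. For Fasn, ChREBPβ KO replicate 4 was the lowest with a share of 1, since the other 7 arrays were tied at 1 value. In total-line WT, the highest array was replicate 2 for Me1 probe A_55_P2009952 (0.565), replicate 8 for Acaca probe A_55_P2019058 (0.636) and replicate 6 for Slc25a1 probe A_66_P130241 (0.590). In total KO, replicate 3 was the lowest for Acacb probe A_55_P2019054 (0.608). In ChREBPβ KO, replicate 4 was the lowest for Acaca probe A_55_P2931361 (0.535) and replicate 7 for Mlycd probe A_66_P118563 (0.560). The dim Acaca probe A_55_P2898142 had 3 such arrays, the lowest of total-line WT (replicate 1, 0.545), the highest of total KO (replicate 8, 0.564) and the lowest of ChREBPβ KO (replicate 6, 0.546).

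The KO effects of the 2 lines differed for 18 of the 23 probes by the test of the difference itself (limma, adjusted p under 0.05), as ChREBPβ KO effect minus total KO effect on the log2 scale. For Acaca the differences were 4.09 (A_55_P2121392), 3.91 (A_52_P132591), 3.80 (A_52_P318040), 3.56 (A_55_P2084703), 3.45 (A_55_P2931361) and 3.31 (A_55_P2019058). For Acly they were 3.83 (A_55_P2082914) and 3.45 (A_55_P2025954), and for Me1 2.29 (A_55_P2016842) and 2.23 (A_55_P2009952). Fasn had 1.82 and the Slc25a1 probes 1.71 (A_66_P130241) and 1.69 (A_66_P108940). For Acss2 they were 1.26 (A_55_P1988795) and 1.15 (A_66_P108725), and for Acacb 1.23 (A_55_P2019054), 0.81 (A_55_P2921709) and 0.51 (A_66_P110803).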

How the results depend on the processing

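The count of the 8 genes called in total KO was 7 under all alternatives, single arrays left out included, and the difference of KO effects gave 7 under all of them apart from 7 to 8 when single arrays were left out. In ChREBPβ KO the count of 1 became 0 when slide was a fixed block and 2 when the probes of a gene were averaged (Acaca then also passed, adjusted p = 0.0329), and was 1 to 3 when single arrays were left out. Between the WT groups the count of 1 became 0 with the deposited table, 0 with the muscle list mean as a covariate and 2 with the mean of probes (Acly then also passed), and was 0 to 1 when single arrays were left out. The causes were not tested. The 32 arrays lie on 15 slides, so the slide block leaves few comparisons within a slide. Mlycd passed the difference of KO effects without ChREBPβ-line WT replicate 5 (−0.30, adjusted p = 0.0458) or total KO replicate 3 (−0.31, adjusted p = 0.0351). Over single genes, 1481 results kept direction and side of the threshold, 8 lost and 7 gained a call, and none of them changed direction after a call.

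The replicate numbers were not taken to pair the arrays, since nothing in the labels ties them to a shared litter or day and same-numbered KO and WT arrays did not all deviate together (correlation between −0.30 and 0.08 over probes in the total line, between −0.20 and 0.53 in the ChREBPβ line). With the replicate block the counts were 7 in total KO, 1 in ChREBPβ KO, 7 for the difference and 1 between WT groups.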
